A study of Mus musculus with 27 samples.

Results

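Cells of m-ICc12, which the study describes as an immortalised epithelial line of mouse small intestine, were compared with mouse embryonic fibroblasts (MEFs). The aim was to describe which epithelial genes the line keeps and which mesenchymal genes it shares with fibroblasts. The comparison holds 6 of the 27 RNA sequencing libraries of the series. These are the 3 m-ICc12 libraries labelled as treated with TNF, an inflammatory cytokine, at 5 ng/ml for 8 h, and the 3 untreated MEF libraries. For every m-ICc12 and organoid culture the file names disagree with the treatment labels: the libraries labelled TNF-treated have names without the code for TNF, and those labelled untreated carry it. Groups follow the labels here, so the words labelled TNF-treated give the label alone. MEFs came from C57BL/6 mice and stood in the study for a cell type of mesodermal origin, and the labels give neither their passage nor how many embryos they came from. The 9 jejunal organoid cultures labelled TNF-treated, grown from adult male C57BL/6 mice of 3 microbiota groups (specific pathogen-free mice of 2 facilities, and germ-free mice), served as a reference for primary small intestinal epithelium. The words kept and lacked compare levels in the line with those of organoids and do not describe its history. The series further held libraries labelled untreated from the same m-ICc12 and organoid cultures. MEFs grew in serum medium, m-ICc12 cells in a low-serum medium with insulin, dexamethasone and epidermal growth factor, and organoids in a matrix with stem cell factors, so that cell type and medium differed together and cannot be told apart. The treatment label differed as well, and the m-ICc12 libraries labelled untreated were set against MEFs for that reason. All m-ICc12 libraries are of this immortalised line, and nothing in the labels says that the 3 MEF libraries came from separate embryos, so the p-values measure the spread between these libraries, which may be technical.

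Epithelial cells lie side by side on a basement membrane of laminins and type IV collagen. They are joined by adherens junctions built on E-cadherin, by tight junctions of claudins and occludin and by desmosomes, and their intermediate filaments are keratins. Fibroblasts lie singly in a matrix of interstitial collagens that they make themselves, and they carry vimentin filaments, N-cadherin and actin stress fibres. In an epithelial-to-mesenchymal transition, repressors of the SNAI and ZEB families bind short E-box sequences in promoters of epithelial genes, whereas GRHL and OVOL factors and the ESRP splicing regulators hold the epithelial state. Many cultured cell lines sit between these states, and HNF4 factors are shared by the epithelia of gut, liver and kidney tubule.

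Library totals were 6071103, 36135139 and 20305584 counts in m-ICc12 replicates 1 to 3 and 41721039, 39187791 and 25187095 in MEF replicates 1 to 3, so that 3 counts, used here as a floor, were worth 0.522, 0.0804 and 0.144 counts per 1000000 (CPM) in the line and 0.0712 to 0.115 CPM in MEFs. The shallowest library, m-ICc12 replicate 1, also had 13.5% of its counts on the gene Lars2, against 0.158% and 4.44% in replicates 2 and 3. It held more traces of genes typical of other cells. Among 61 genes above 200 CPM in MEFs and under 2 CPM in organoids, 2 lay under 0.1% of the MEF level in replicate 1, against 15 in replicate 2 and 13 in replicate 3. Levels are given per library for this reason, and results that changed without replicate 1 are named.

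The NF-kB target genes ran against the treatment labels. Nfkbia, the inhibitor that NF-kB induces in its own feedback loop, stood at 14.6, 21.7 and 22 CPM in the m-ICc12 libraries labelled TNF-treated, at 114, 68.9 and 77.9 CPM in those labelled untreated and at 35.6, 43.9 and 43 CPM in MEFs. Cxcl1, a neutrophil chemokine, had 27.3, 20.0 and 22.8 CPM under the TNF label and 93.9, 84.9 and 71.4 CPM under the untreated label. The same order held for Ccl2, Lcn2 and C3 in each of the 3 cultures. These levels were known when the libraries were picked and are given as a description. With the m-ICc12 libraries labelled untreated in their place, 6426 of the 7023 genes called against MEFs were called again, and list counts changed by over 1.5 times for NF-kB targets alone.

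The labelled cell types were checked against markers. Of 13 fibroblast markers, 9 were at 15.3 CPM or more in every MEF library, including Col1a1, Col1a2 and Twist1. The other 4, which many connective tissue fibroblasts express, were absent or nearly so: the surface protein gene Thy1 and the proteoglycan gene Lum were at 0 in all 3 MEF libraries, Dcn was at 0, 0.226 and 0 CPM and Pdgfra at 1.57, 0.677 and 0.115 CPM. Markers of other cell types were few: the summed level of 10 macrophage and leukocyte markers was 149.5, 118 and 134 CPM in m-ICc12 replicates 1 to 3 and 4.34, 5.22 and 6.65 CPM in MEFs, most of it from Csf1r in the line (138, 102 and 112 CPM), while Adgre1, Cd52, Tyrobp and Aif1 were at 0 in all 6 libraries. Sums over 8 endothelial markers were 25.5 to 35.5 CPM in the line and 11.8 to 23 CPM in MEFs, and those over 9 muscle markers, 9 neural markers and 11 cartilage, bone and fat markers were at most 14 CPM in every m-ICc12 library. The part of any such cells in the results was not tested, and in bulk libraries fewer cells of a type and less RNA per cell cannot be told apart.

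Of 12623 genes tested with edgeR's quasi-likelihood test, 3385 (26.8%) were higher and 3638 (28.8%) were lower in m-ICc12 cells than in MEFs at a Benjamini-Hochberg adjusted p under 0.05, 55.6% in either direction. A difference of 4-fold or more was called for 1471 genes (11.7%) in the upward and 1261 (9.99%) in the downward direction, 21.6% together. By the thresholds of the study's methods, an unadjusted p of 0.05 and a log2 difference of 0.5, 55.7% were called, 27.1% higher and 28.6% lower. Values of the 6 libraries did not overlap between the groups for 63.5% of the genes, and for 4170 genes (33%) the 95% interval of the log2 difference lay within 1 in either direction, here called close to MEFs whether or not the gene passed the test. The median log2 difference over all genes was -0.04, so the groups were centred. With 55.6% of all genes called, the size of a difference says more than its call. Unless said otherwise, the values of a gene named as higher or lower did not overlap between the 2 groups. Comparisons with organoids used the same 3 m-ICc12 libraries. Genes enter the test when 1 group alone has enough counts, so a member at or near 0 in the other group enters through the group where it is high, and the list counts are descriptions to be read beside these shares.

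**Figure D1:**
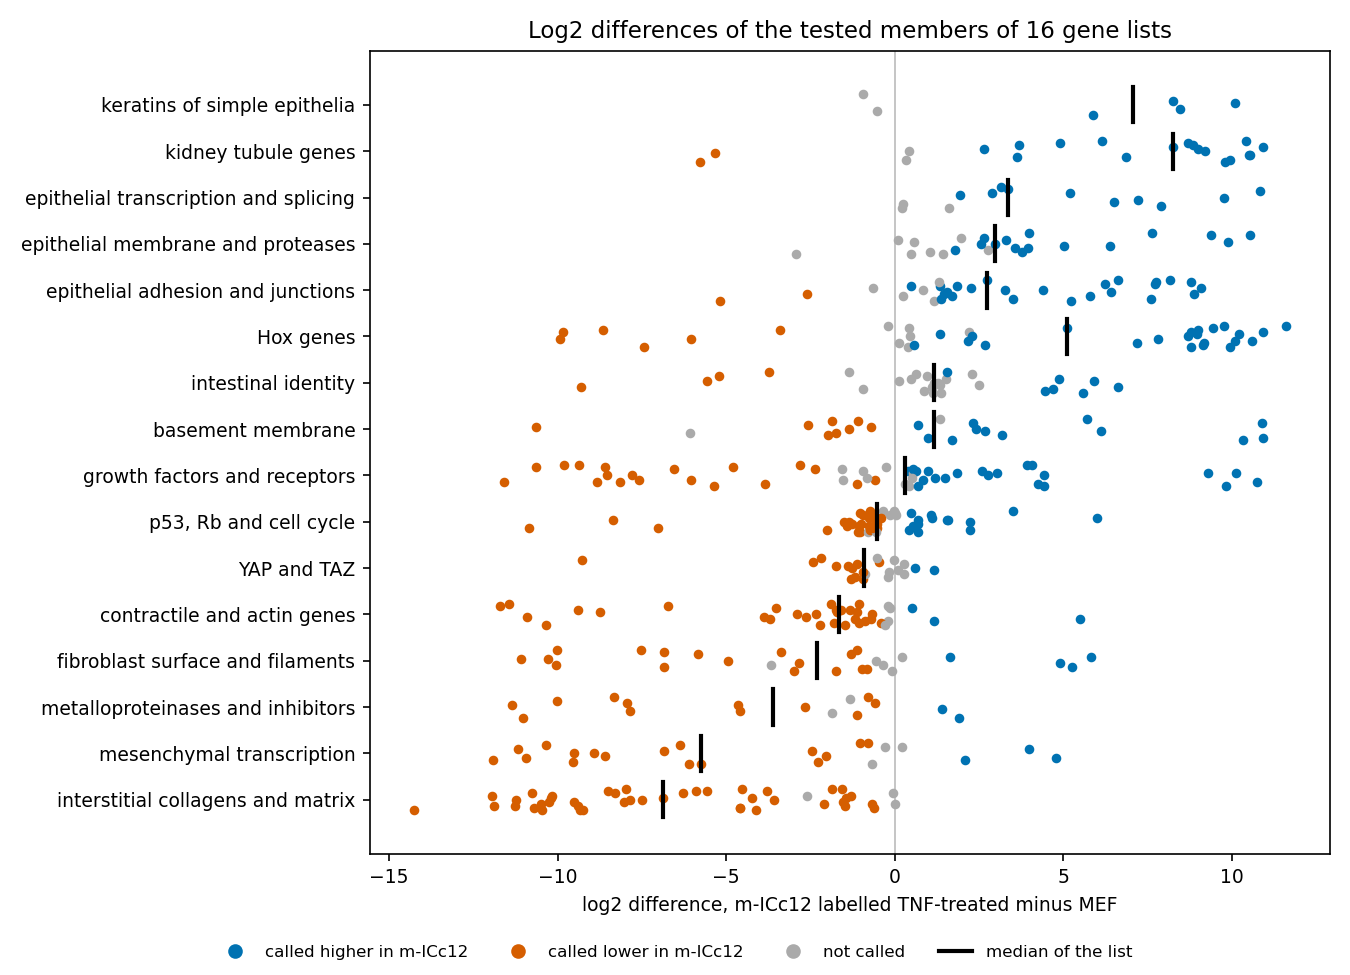
Each point is a tested gene of a list, placed at its log2 difference (m-ICc12 libraries labelled TNF-treated minus MEFs), in blue when called higher in the line, in orange when called lower and in grey when not called, and the black bar is the median of the list. The medians run from 8.25 for kidney tubule genes and 7.07 for keratins down to -5.75 for mesenchymal transcription regulators and -6.88 for interstitial matrix, and the far points of genes at or under 3 counts in a group are fitted values that depend on a small prior count.

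Keratins of simple epithelia, the filament proteins of epithelia with 1 cell layer, were high in the line. Krt8, the type II keratin of simple epithelia, stood at 1146, 1475 and 1515 CPM in m-ICc12 replicates 1 to 3 and at 4.89, 3.44 and 5.23 CPM in MEFs (log2 difference 8.26 ± 0.24 SE; adjusted p = 2.4e-09). Its partner Krt18 had 381, 484 and 508 CPM in the line and 0.950, 1.63 and 1.26 CPM in MEFs (8.48 ± 0.25; adjusted p = 2.6e-09). The levels of both were near those of organoids, where the medians were 1901 and 487 CPM, and for Krt18 the test against organoids made no call (adjusted p = 0.37). Krt20, a keratin of mature intestinal villus cells, stood at 479, 705 and 618 CPM in the line, 0.451, 0.452 and 0.802 CPM in MEFs and a median of 159 CPM in organoids, so that the line exceeded both (10.09 ± 0.28 against MEFs and 1.94 ± 0.25 against organoids). Krt7, a keratin of ducts and bladder, was called higher than in MEFs as well (5.88 ± 0.29). The exception was Krt19, which organoids carried at a median of 1321 CPM. In m-ICc12 cells it was at 9.05, 2.79 and 2.4 CPM, no higher than the 7.43, 10.6 and 8.33 CPM of MEFs (-0.95 ± 0.56; adjusted p = 0.17), and without m-ICc12 replicate 1 it was called lower than in MEFs (log2 difference -1.74). In all, 4 of the 6 tested keratins were higher (66.7%, beside 26.8% of all genes) and none was lower.

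The promoters of 4 epithelial genes are shown because each holds the E-box read by SNAI and ZEB repressors, while the genes themselves fell on opposite sides: Krt8 and Krt18 were held at 50% of the organoid level or more in the line and Spint2, which encodes a membrane-bound protease inhibitor, at 10 to 50%, and Epcam, an epithelial adhesion molecule, at under 1%. Sequences are from RefSeq (GRCm38.p6), run 5′ to 3′ on the gene's strand from 250 bases before the start to 50 bases after it, and capitals mark the motif CACCTG or its reverse complement CAGGTG. They lie at chr15:102004293-102004592 (minus strand), chr15:102027966-102028265 (plus), chr7:29281928-29282227 (minus) and chr17:87635729-87636028 (plus).
Krt8: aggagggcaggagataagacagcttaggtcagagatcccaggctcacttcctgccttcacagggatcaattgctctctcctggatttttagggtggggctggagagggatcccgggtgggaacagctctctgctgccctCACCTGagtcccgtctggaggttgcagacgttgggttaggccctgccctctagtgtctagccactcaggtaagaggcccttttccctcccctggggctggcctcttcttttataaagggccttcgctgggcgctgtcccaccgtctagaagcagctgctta
Krt18: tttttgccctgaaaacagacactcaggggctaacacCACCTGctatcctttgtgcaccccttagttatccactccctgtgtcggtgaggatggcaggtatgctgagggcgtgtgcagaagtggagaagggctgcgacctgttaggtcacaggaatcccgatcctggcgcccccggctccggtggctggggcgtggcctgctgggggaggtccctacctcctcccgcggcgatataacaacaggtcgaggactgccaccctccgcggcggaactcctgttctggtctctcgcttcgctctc
Spint2: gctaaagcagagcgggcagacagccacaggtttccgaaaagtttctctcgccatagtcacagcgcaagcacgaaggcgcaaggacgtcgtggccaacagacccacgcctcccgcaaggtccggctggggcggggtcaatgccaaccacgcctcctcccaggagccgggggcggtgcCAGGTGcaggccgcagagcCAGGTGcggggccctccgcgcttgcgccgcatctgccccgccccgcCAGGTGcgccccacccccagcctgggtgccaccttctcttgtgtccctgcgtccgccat
Epcam: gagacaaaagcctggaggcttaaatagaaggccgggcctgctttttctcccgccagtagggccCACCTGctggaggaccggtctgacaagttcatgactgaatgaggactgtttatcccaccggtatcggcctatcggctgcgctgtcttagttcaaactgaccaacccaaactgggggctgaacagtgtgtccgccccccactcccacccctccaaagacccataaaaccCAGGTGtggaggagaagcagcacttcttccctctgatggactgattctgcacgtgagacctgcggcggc

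The motif began 111 bases before the start of Krt8, 214 before that of Krt18, 187 and 19 before that of Epcam, and 74, 55 and 9 before that of Spint2. Searched on both strands, it was in 6640 of 32851 mouse promoters of this length (20.2%), in 37 of 68 promoters of the 4 epithelial lists described here (54.4%) and in 14 of 121 promoters of 4 mesenchymal lists (11.6%). Promoters with the motif were found among genes that the line kept as well as among those it lacked. The motif was in 11 of 26 promoters (42.3%) of epithelial genes that the line held at 50% of the organoid level or more. It was in 9 of 11 (81.8%) of those at 10 to 50%, 3 of 5 (60%) at 1 to 10% and 7 of 11 (63.6%) at under 1%. Some genes had several promoters, which were counted singly. By gene, the motif was in 11 of 20, 6 of 8, 2 of 3 and 7 of 10 genes of these classes, in the same order. Its share was thus lowest in the highest class, by a smaller margin when counted by gene. There was no steady order over the other classes, which held few promoters. Promoter sequences were available for 52 of the 90 genes of the 4 epithelial lists. In the lowest class they covered 10 of 23 genes, and Cdh1 had none. A match is a string of letters and says nothing on binding.

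Junction genes split into a part that the line kept and a part that it lacked. Of 31 tested adhesion and junction genes, 24 were higher than in MEFs (77.4%, beside 26.8% of all genes) and 2 were lower, with a median log2 difference of 2.74. Desmoplakin, the Dsp product that ties keratins to desmosomes, was at 556, 427 and 506 CPM in the line and 2.78, 1.43 and 2.9 CPM in MEFs (7.72 ± 0.29; adjusted p = 9.9e-09), with an organoid median of 492 CPM. Ppl, which encodes the desmosomal linker periplakin, had 241, 242 and 271 CPM in the line, 0.594, 0.703 and 1.41 CPM in MEFs and a median of 32.8 CPM in organoids. Among the claudins, which form the strands of the tight junction, Cldn2, the pore-forming claudin of crypts and leaky epithelia, had 299, 295 and 206 CPM in the line and 0.594, 0.427 and 0.420 CPM in MEFs (9.08 ± 0.26), close to the organoid median of 267 CPM. Cldn1, a sealing claudin, was at 109, 135 and 139.9 CPM in the line but at a median of 0.0376 CPM in organoids. Cldn4 was at least 159.9-fold higher than in MEFs and Crb3, which encodes an apical polarity protein, at least 134-fold higher. Both bounds, as those below, set the mean of the higher group against the floor of 3 counts. Ocln and Lsr, which encode proteins of the tight junction and its 3-cell corners, and Perp, a desmosome component, were higher than in MEFs as well (6.24, 7.61 and 4.41 on the log2 scale).

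E-cadherin itself was among the genes that the line lacked. Cdh1 stood at 6.79, 1.93 and 1.3 CPM in m-ICc12 replicates 1 to 3, at 1.52, 1.00 and 1.8 CPM in MEFs and at 885 to 1063 CPM in organoids. The line and MEFs overlapped and the test called no difference (1.18 ± 0.84; adjusted p = 0.26; 95% interval -0.69 to 3.05), while the log2 difference from organoids was -8.60 ± 0.38 (adjusted p = 2.2e-12). With all 27 libraries in 1 fit Cdh1 was called higher than in MEFs (log2 difference 0.88; adjusted p = 0.039). Epcam was at 7.14, 5.04 and 3.36 CPM in the line, 1.33, 1.00 and 1.95 CPM in MEFs and a median of 1006 CPM in organoids, a level in the line of under 1% of that in organoids. It was called slightly higher than in MEFs (1.85 ± 0.64; adjusted p = 0.03), a call that was lost on leaving out m-ICc12 replicate 1 or 2 or MEF replicate 1 or 2 (adjusted p = 0.069, 0.061, 0.10 and 0.10), with the replicate block (adjusted p = 0.10) and with the libraries labelled untreated (adjusted p = 0.055). Cldn3 and Cldn7, claudins of intestinal epithelium, were at 0.348, 0.483 and 0.672 and 2.96, 1.02 and 0.624 CPM in the line, against organoid medians of 181 and 516 CPM. The line carried transcripts of N-cadherin: Cdh2 had 210.1, 161 and 189.7 CPM in the line and 167, 188 and 129.9 CPM in MEFs, and a median of 0.228 CPM in organoids. Cdh16, a cadherin of kidney tubules, was at 659, 868 and 684 CPM in the line and 0.427, 0.527 and 0.535 CPM in MEFs (10.53 ± 0.22). Both lower genes of the list encode plakophilins, plaque proteins of desmosomes: Pkp1 (-5.19 ± 0.63) and Pkp3 (-2.59 ± 0.66).

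Membrane and protease genes showed the same split. Of 23 tested genes of this list 15 were higher than in MEFs (65.2%, beside 26.8% of all genes) and none was lower (median log2 difference 2.98). Prom1, which encodes the apical protrusion protein prominin 1, was at 791, 737 and 659 CPM in the line and 0.736, 0.652 and 0.917 CPM in MEFs (9.91 ± 0.21), above the organoid median of 256 CPM. Myo5b, the motor of apical recycling vesicles, was higher in the line than in MEFs (9.40 ± 0.33) as was ezrin, the linker of microvilli to the membrane (Ezr, 2.65 ± 0.14). Spint2 stood at 173, 180.0 and 148 CPM in the line and 0.689, 0.778 and 1.11 CPM in MEFs (7.63 ± 0.23; adjusted p = 2.7e-09), with a median of 489 CPM in organoids. Its target protease was not kept alongside it: St14, which encodes matriptase, was at 1.57, 0.536 and 0.288 CPM in the line, 0.570, 0.276 and 0.764 CPM in MEFs and a median of 255 CPM in organoids. Mal2, a protein of apical transport, was at 1.22, 0.509 and 0.480 CPM in the line against a median of 322 CPM in organoids. Cdh17, the liver and intestine cadherin, was higher than in MEFs (2.98 ± 0.33) and lower than in organoids (-5.21 ± 0.16).

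Among transcription and splicing regulators of epithelia, 13 of 22 genes had counts enough for the test. Of these 10 were higher than in MEFs (76.9%, beside 26.8% of all genes) and none was lower (median log2 difference 3.37). Tfcp2l1, a grainyhead-like factor of kidney and duct epithelia, was at 313, 195 and 210.0 CPM in the line and 0.142, 0.477 and 0.153 CPM in MEFs (9.78 ± 0.40; adjusted p = 1.7e-08), and its level exceeded the organoid median of 19.4 CPM. Elf3, a regulator of epithelial differentiation, stood at 53.4, 60.8 and 39.6 CPM in the line and 0.499, 0.527 and 0.649 CPM in MEFs (6.52 ± 0.30), and was lower than in organoids (-2.69 ± 0.16). The line had Esrp2 (36.2, 23.8 and 14.7 CPM) but little of its partner Esrp1 (1.39, 0.456 and 0.192 CPM against an organoid median of 195 CPM). Grhl2, which holds the epithelial state, was at 0.522, 0.215 and 0.336 CPM against an organoid median of 66.6 CPM.

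Read against organoids, the epithelial programme was kept in part. Of 73 genes of these 4 lists with a median of at least 20 CPM in organoids, 27 were at 50% or more of that level in the line, 15 at 10 to 50%, 8 at 1 to 10% and 23 at under 1%. Desmosomal and tight junction genes were spread over the classes. Dsp, Jup, Pkp2, Ppl, Perp, Tjp1 and Patj were in the first class, together with 4 of the 5 keratins, whereas Dsg2, a desmosomal cadherin, and Tjp3 were at 1 to 10%, and the desmosomal genes Dsc2, Pkp1, Pkp3 and Evpl were at under 1%. The last class further held Cdh1, Epcam, Cldn3, Cldn7, Krt19, the membrane proteases St14, Prss8 and Tmprss2, the apical transport genes Rab25 and Mal2, and the regulators Grhl2, Esrp1, Foxa1 and Foxa3. The classes were cut from the levels themselves and are a description.

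**Figure D2:**
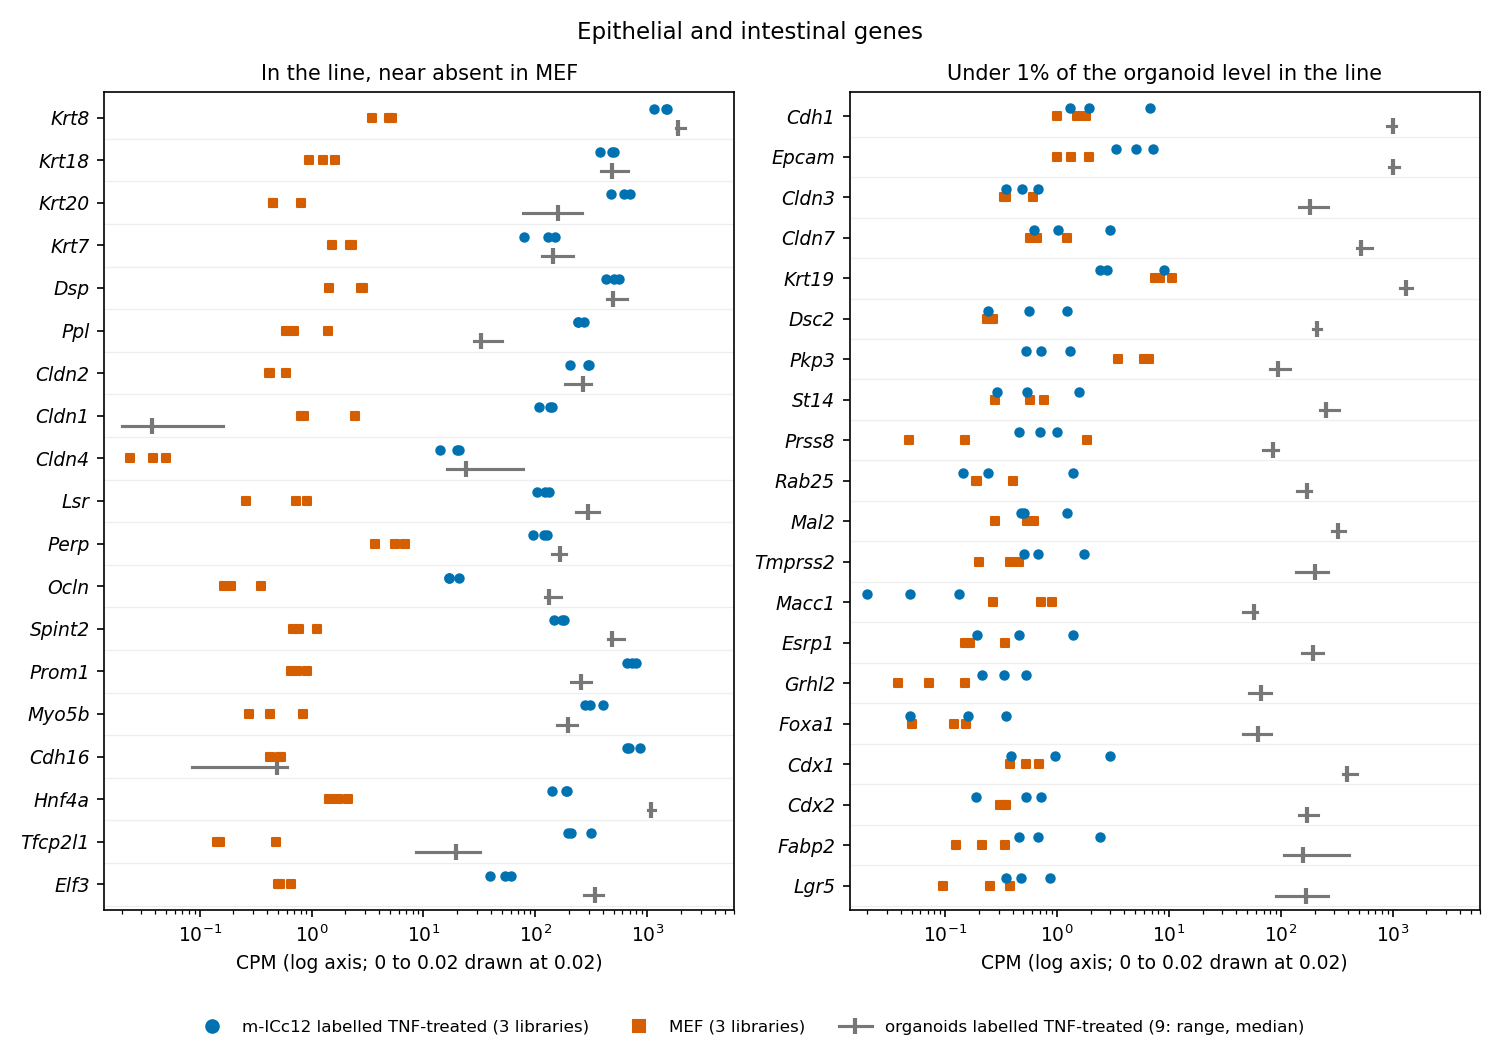
CPM on a log axis for 19 epithelial genes that the line expressed (left) and 20 epithelial and intestinal genes that it held at under 1% of the organoid level (right), with blue points for the 3 m-ICc12 libraries labelled TNF-treated, orange squares for the 3 MEF libraries, and grey lines for the range and median of the 9 organoid cultures. Cdh16 and Cldn1, on the left, were nearly absent from organoids. On the left the blue points stand apart from the orange ones for every gene; on the right they lie near the orange ones, and Krt19 is at 2.40 to 9.05 CPM in the line beside 1321 CPM in organoids.

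Genes of intestinal identity were nearly all low. Of 39 tested against organoids 38 were lower in the line, at a median log2 difference of -8.42, where 35% of all 12826 genes were lower and 31.9% higher. Cdx1 and Cdx2, the homeobox factors that define the intestine, were at 2.96, 0.965 and 0.384 and 0.522, 0.188 and 0.720 CPM in the line, at 0.522, 0.376 and 0.688 and 0.309, 0.351 and 0.344 CPM in MEFs, and at medians of 393 and 173 CPM in organoids. Cdx1 was not called against MEFs in the main fit, but was called higher with all 27 libraries in 1 fit (log2 difference 1.01; adjusted p = 0.037). Against MEFs 7 of 27 tested genes were higher, close to the 26.8% over all genes. These were led by Hnf4a, a regulator of gut, liver and kidney, at 189, 191 and 141 CPM in the line and 1.42, 1.73 and 2.1 CPM in MEFs (6.64 ± 0.23), 6.30-fold under the organoid level. Brush border genes were present at low levels: Vil1, which encodes the microvillus protein villin, had 27.5, 39.7 and 30.8 CPM in the line, 1.09, 0.878 and 1.83 CPM in MEFs and a median of 717 CPM in organoids. Cdhr2, a brush border protocadherin, and Anpep, aminopeptidase N, were likewise higher than in MEFs (5.59 ± 0.43 and 4.46 ± 0.58) and lower than in organoids (-3.61 ± 0.24 and -3.97 ± 0.56). Pklr, the pyruvate kinase of liver and gut, was at 69.3, 48.5 and 39.1 CPM in the line and 0.665, 0.778 and 1.18 CPM in MEFs. Of the genes of this list that were lower than in MEFs, Gata6 encodes an endoderm factor that mesoderm also uses (-5.57 ± 0.69), and Smoc2 (-5.21 ± 0.51) and Dclk1 (at least 85.7-fold lower) mark stem and tuft cells in the gut and are expressed in mesenchyme too.

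Vimentin was as high in the line as in fibroblasts. Vim stood at 2119, 2288 and 2629 CPM in m-ICc12 replicates 1 to 3 and at 2355, 2584 and 2463 CPM in MEFs (log2 difference -0.07 ± 0.14; adjusted p = 0.67; 95% interval -0.37 to 0.23), against a median of 7.22 CPM in organoids. The groups overlapped, and the interval was narrower than 2-fold in either direction. Cdh2 was close to MEFs too (0.21 ± 0.17; adjusted p = 0.32; interval -0.17 to 0.59). Nestin, an intermediate filament protein of progenitor cells, was at 226, 229 and 235 CPM in the line and 293, 351 and 228 CPM in MEFs (Nes, -0.34 ± 0.16; adjusted p = 0.1), and was called lower without MEF replicate 3 (log2 difference -0.47). Lgals1, which encodes galectin 1, and Axl, a receptor kinase of mesenchymal cells, were within a few-fold of MEFs (-0.81 ± 0.20 and -1.11 ± 0.16) and far above organoids (7.92 ± 0.24 and 8.52 ± 0.34). Some surface genes of mesenchymal cells were higher in the line than in MEFs: Nt5e, the ectonucleotidase CD73, at 142, 129 and 104 CPM against 2.66, 1.68 and 2.29 CPM, the integrin Itgb3 (4.91 ± 0.20), the collagen receptor subunit Itga1 (5.27 ± 0.38) and Ncam1 (1.63 ± 0.18). Over the list of 26 tested fibroblast surface and filament genes, 17 were lower and 4 higher (65.4% and 15.4%, beside 28.8% and 26.8% of all genes). The median was -2.29, or -1.51 with genes at the floor set to their bound. Pdgfrb, the PDGF receptor of fibroblasts and pericytes, was at least 164-fold lower in the line, and Ddr2 and S100a4 were lower as well (-6.86 ± 0.21 and -6.85 ± 0.28).

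**Figure D3:**
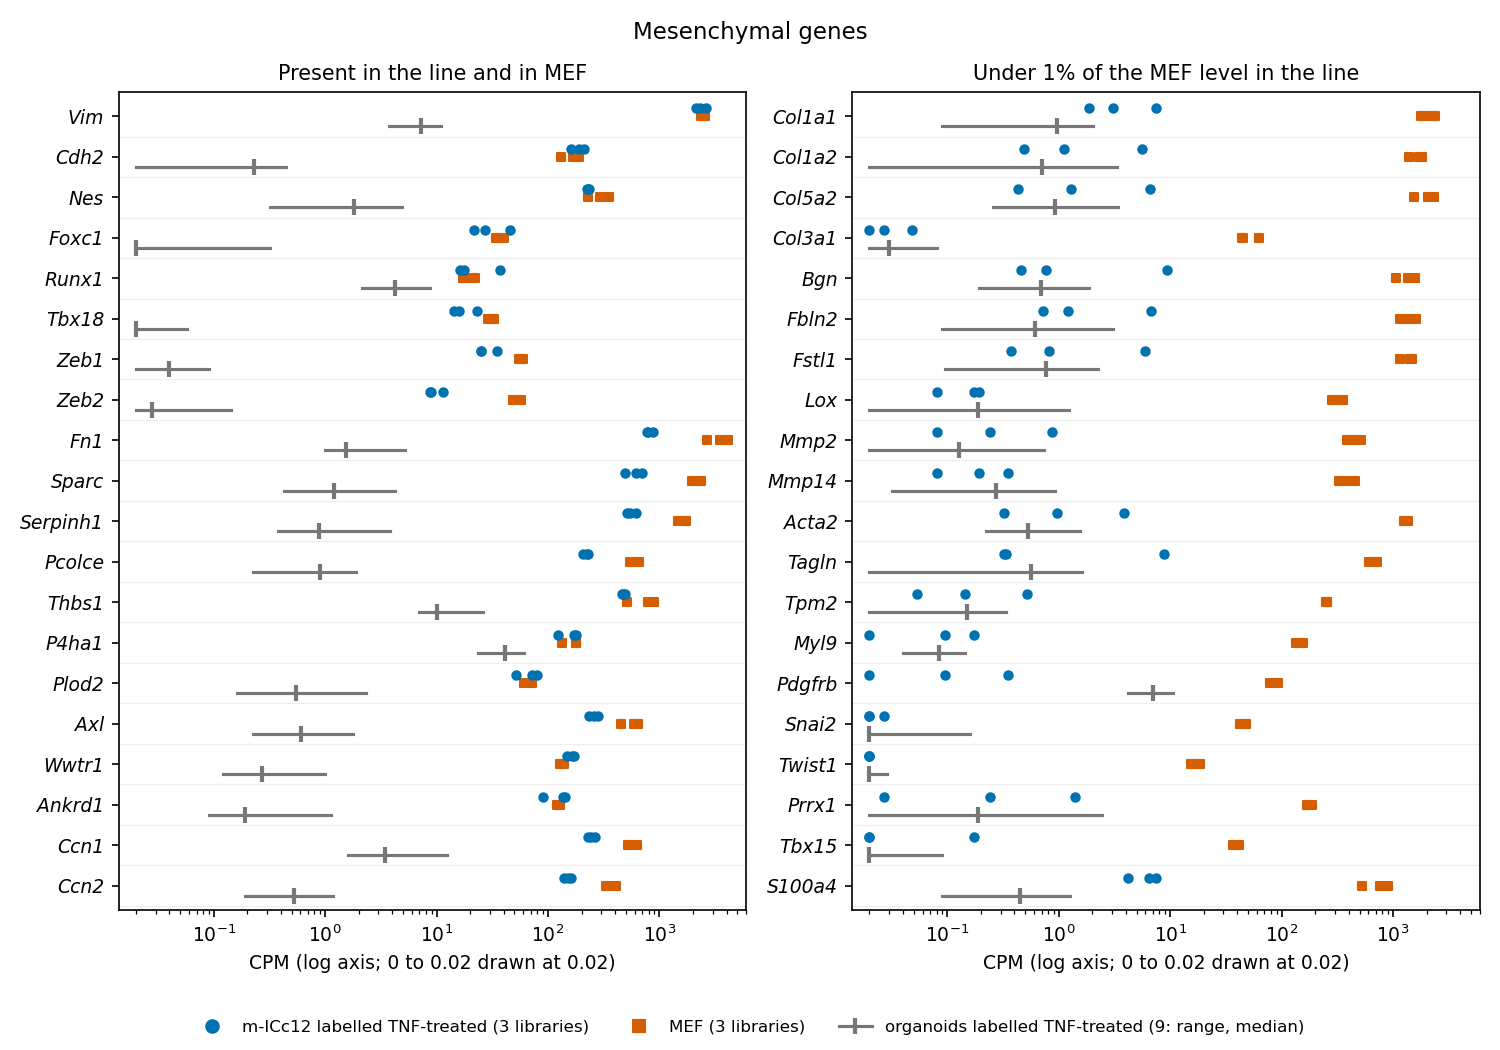
CPM on a log axis for 20 mesenchymal genes that the line and MEFs both carried (left) and 20 that the line held at under 1% of the MEF level (right), with blue points for the 3 m-ICc12 libraries labelled TNF-treated, orange squares for the 3 MEF libraries and grey lines for the range and median of 9 organoid cultures. Vim and Cdh2 of the line lie among the MEF values and far above organoids, while Col1a1, Acta2 and Snai2 lie in the range of organoids or just above it.

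Regulators of the mesenchymal state differed between families and within them. ZEB factors were present in the line: Zeb1 stood at 34.6, 24.9 and 25 CPM there, 56.9, 59.3 and 54.6 CPM in MEFs and 0 to 0.0902 CPM in organoids (-1.03 ± 0.19; adjusted p = 0.001 against MEFs). Zeb2 was at 11.5, 8.66 and 8.88 CPM in the line and 50.4, 48 and 57.5 CPM in MEFs (-2.45 ± 0.21; adjusted p = 4.4e-06). Both were thus lower than in MEFs and far above organoids, where they were near 0, but the call of Zeb1 against MEFs was lost with all 27 libraries in 1 fit (adjusted p = 0.077). The TWIST genes and most of the SNAI family were nearly absent. Snai2 had 0, 0.0268 and 0 CPM in the line and 42.4, 47.3 and 47.9 CPM in MEFs, at least 87.9-fold lower, and Twist1 was at 0 in all 3 m-ICc12 libraries and at 15.3, 18.6 and 16.2 CPM in MEFs, at least 32-fold lower. Snai1 and Twist2 were lower too (-5.75 ± 0.91 and -6.38 ± 0.78). The exception was Snai3, a less studied SNAI member, at 4.87, 2.28 and 4.03 CPM in the line and 0.214, 0.0251 and 0.153 CPM in MEFs, higher in the line (4.79 ± 1.03; adjusted p = 0.0027). Many factors of limb and body wall mesenchyme were lower. The paired-type factor Prrx1 was at 1.39, 0.0268 and 0.240 CPM against 187, 176 and 169.6 CPM (-9.52 ± 0.56), and its relative Prrx2 was at least 28-fold lower. The T-box factor Tbx15 was at least 76-fold, the homeobox factors Msx1 and Msx2 at least 10.9-fold and at least 19.2-fold, and the zinc finger factor Osr1 at least 13.5-fold lower. Of the forkhead factors Foxc2 was at least 29.3-fold lower and Foxf2 was lower too (-6.11 ± 1.15). Foxc1, Tbx18 and Runx2 stayed within a few-fold of MEFs. Foxc1, a forkhead factor of mesoderm, was at 45.8, 26.9 and 21.7 CPM against 34.5, 39.8 and 40.1 CPM and was close to MEFs (-0.30 ± 0.27; adjusted p = 0.37), although without m-ICc12 replicate 1 it was called lower (-0.63). Tbx18 was called lower (-0.78 ± 0.23; adjusted p = 0.015), a call lost without m-ICc12 replicate 3 or MEF replicate 1 (adjusted p = 0.057 and 0.064) or with all 27 libraries in 1 fit (adjusted p = 0.30). Runx2, an osteoblast factor, was lower (-2.04 ± 0.21), a call lost in that fit as well (adjusted p = 0.056). Foxd1, a factor of kidney stroma, was higher in the line (3.97 ± 0.62; adjusted p = 3.4e-04), and so was Osr2, a relative of Osr1 (2.10 ± 0.60), whose call was lost without m-ICc12 replicate 3 (adjusted p = 0.060), with the replicate block (adjusted p = 0.052) and with the libraries labelled untreated (adjusted p = 0.23). In all, 17 of 23 tested regulators were lower and 3 were higher (73.9% and 13%, beside 28.8% and 26.8% of all genes). Close to MEFs were 2, beside 33% of all genes, and the median was -5.75, or -3.44 with bounds.

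Interstitial matrix was lower nearly throughout: 42 of 45 tested genes were lower in the line (93.3%, beside 28.8% of all genes), none was higher and 3 were close, with a median of -6.88, or -4.54 with bounds. Col1a1, the main chain of type I collagen, stood at 7.48, 3.08 and 1.87 CPM in the line and 2031, 2401 and 1797 CPM in MEFs (-9.24 ± 0.43; adjusted p = 4.3e-08). Its partner Col1a2 had 5.57, 0.483 and 1.1 CPM against 1699, 1819.6 and 1384 CPM (-10.16 ± 0.65), and Col5a2, which co-assembles with type I collagen, 6.61, 0.429 and 1.3 CPM against 2049, 2311 and 1534 CPM (-10.20 ± 0.74). In each of these genes m-ICc12 replicate 1 had the highest of the 3 values in the line. Col3a1 was at least 97.2-fold lower, Fbln5, an elastic fibre protein, at least 165-fold lower, and Loxl2, a collagen crosslinking oxidase, at least 310.0-fold lower. Lox, Fbn1, Bgn and Fbln2, which encode a crosslinking oxidase, fibrillin 1, the proteoglycan biglycan and fibulin 2, were lower as well, with log2 differences from -11.28 (Lox) to -7.85 (Fbn1).

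Matrix genes that remained were glycoproteins and collagen-processing enzymes. Fn1, which encodes fibronectin, was at 782, 773 and 876 CPM in the line and 3477, 4135 and 2681 CPM in MEFs (-2.08 ± 0.18; adjusted p = 3.6e-06), against a median of 1.54 CPM in organoids. Sparc, a collagen-binding glycoprotein, had 492, 698 and 616 CPM in the line and 2307, 2340.2 and 1943 CPM in MEFs (-1.87 ± 0.16). Serpinh1, the collagen chaperone of the endoplasmic reticulum, was at 515, 545 and 612 CPM against 1707, 1730.1 and 1476 CPM (-1.55 ± 0.14), and Pcolce, an enhancer of procollagen cleavage, at 206, 224 and 227 CPM against 587, 660.2 and 546 CPM (-1.45 ± 0.13). These 4 were all called lower than in MEFs, but by 2.73- to 4.24-fold, where Col1a1 was 603-fold lower. Col5a1 was in between (-4.54 ± 0.17).

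Actin and contractile genes were lower as a group, most of all the smooth muscle genes and least the general cytoskeleton. Of 36 tested genes 29 were lower and 3 were higher (80.6% and 8.33%, beside 28.8% and 26.8% of all genes). Close to MEFs were 7, beside 33% of all genes, and the median was -1.65. Acta2, smooth muscle actin, stood at 3.83, 0.322 and 0.960 CPM in the line and 1308, 1371 and 1247 CPM in MEFs (-10.35 ± 0.58; adjusted p = 1.6e-07). Tagln, which encodes the actin-binding transgelin, had 8.88, 0.322 and 0.336 CPM in the line and 719, 614 and 674 CPM in MEFs (-8.74 ± 0.93). Tpm2, a tropomyosin, was at least 486-fold lower, Myl9, the myosin light chain of smooth muscle, at least 279-fold lower, and Cnn1, calponin, at least 28-fold lower. The non-muscle myosin heavy chain Myh9 was close to MEFs, at 1643, 1309 and 1818 CPM against 1811, 2150.0 and 1491 CPM (-0.19 ± 0.18; adjusted p = 0.39). Flna, the filamin that crosslinks actin, was lower by a smaller amount (-1.48 ± 0.18). The higher genes were Mylk, myosin light chain kinase, at 192, 105 and 110.5 CPM against 2.9, 1.18 and 5.16 CPM (5.49 ± 0.48), Myl12b (1.17 ± 0.20) and Lasp1 (0.53 ± 0.12).

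Over the 4 mesenchymal lists, 95 genes had a mean of at least 20 CPM in MEFs. The line held 23 of them at 50% or more of the MEF level, 30 at 10 to 50%, 13 at 1 to 10% and 29 at under 1%. Of 33 contractile genes 10 were at 50% or more and 15 at 10 to 50%, whereas of 34 matrix genes 7 were at 1 to 10% and 16 at under 1%. The 61 genes above 200 CPM in MEFs and under 2 CPM in organoids had a median level in the line of 6.5%, 7.31% and 9.59% of the MEF mean in replicates 1 to 3, and 27, 28 and 29 of them were at 10% or more. The reverse set, 97 genes above 200 CPM in organoids and under 2 CPM in MEFs, had medians of 1.44%, 0.799% and 0.437% of the organoid level in the line. Of these genes 29, 29 and 17 were at 10% or more there. The medians of 0.150% to 0.192% in MEFs were bound to be low by the choice of genes, so they are no yardstick for the line.

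YAP and TAZ are coactivators of TEAD factors that respond to cell spreading and tension. Of 22 tested effectors and targets 12 were lower in the line and 2 were higher (54.5% and 9.09%, beside 28.8% and 26.8% of all genes). Close to MEFs were 7, beside 33% of all genes, and the median was -0.91. Wwtr1, which encodes TAZ, was at 165, 149 and 169.5 CPM in the line, 139, 131 and 128 CPM in MEFs and a median of 0.271 CPM in organoids, while Yap1 was lower than in MEFs (-0.93 ± 0.14). Tead1 was close to MEFs (-0.17 ± 0.16; adjusted p = 0.41). The target Ankrd1 was not called against MEFs (91, 135 and 143 CPM against 122, 128 and 121 CPM, adjusted p = 0.98). It was called higher with the m-ICc12 libraries labelled untreated (log2 difference 0.41) and with cultures summed (0.36). The targets Ccn1 and Ccn2, which encode secreted matricellular proteins, were lower (-1.19 ± 0.13 and -1.25 ± 0.14) and yet above organoids (5.81 ± 0.42 and 7.92 ± 0.32). Vgll3, a TEAD cofactor, had 0.522, 0.0268 and 0.672 CPM in the line and 189.9, 196 and 183 CPM in MEFs (-9.29 ± 0.50).

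Basement membrane genes went both ways, by chain. Of 22 tested genes 12 were higher in the line and 8 were lower (54.5% and 36.4%, beside 26.8% and 28.8% of all genes; median 1.17). The chains of type IV collagen, whose genes lie head to head in pairs, differed by pair. Col4a1 was at 278, 296 and 276 CPM in the line and 1062, 1229.9 and 795 CPM in MEFs (-1.86 ± 0.17), and Col4a2 was lower too (-1.36 ± 0.19). Col4a3 had 278, 203 and 208 CPM in the line and 0.0712, 0.100 and 0.191 CPM in MEFs (10.95 ± 0.31; adjusted p = 2.3e-09), and its neighbour Col4a4 259.7, 184 and 222 CPM against 0.0712, 0.176 and 0.0764 CPM (10.91 ± 0.31). These are the chains of the mature basement membrane of the kidney glomerulus and parts of the tubule, and organoids had medians of 0.113 and 0.0800 CPM. Col4a5 and Col4a6 were higher as well (2.69 ± 0.24 and 10.35 ± 0.44). Col18a1, which encodes the collagen that gives rise to endostatin, stood at 1138, 1219 and 1244 CPM in the line against 22.5, 25.7 and 20.8 CPM in MEFs (5.70 ± 0.16; adjusted p = 2.3e-09).

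Laminin chains differed by subunit. Lama5, the alpha chain of most adult epithelial basement membranes, was at 1525, 1053 and 1097 CPM in the line and 371, 442 and 323 CPM in MEFs (1.70 ± 0.19), Lamb1 was higher (0.69 ± 0.15), and Lamb2 and Lamc1 were lower (-1.75 ± 0.14 and -0.69 ± 0.14). The hemidesmosome receptor subunits Itga6 and Itgb4 were higher (2.33 ± 0.24 and 6.14 ± 0.44). Nid1, which encodes the linker between laminin and collagen networks, had 0, 0.134 and 0 CPM in the line and 136, 151 and 102 CPM in MEFs (-10.65 ± 0.43). Of the heparan sulfate proteoglycans, Agrn was higher (2.41 ± 0.17) and Hspg2, perlecan, lower (-1.09 ± 0.23), a call lost with all 27 libraries in 1 fit (adjusted p = 0.086). Against organoids 22 genes of the list were tested, with Lama3 among them in place of Col17a1, and 16 were higher in the line and 5 were lower. Organoids had medians of 7.13 CPM for Lama5 and 0.361 CPM for Lamb1.

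Matrix-degrading enzymes followed the interstitial matrix. Of 16 tested metalloproteinases, plasminogen activators and inhibitors 12 were lower in the line and 2 were higher (75% and 12.5%, beside 28.8% and 26.8% of all genes). The median was -3.61, or -1.37 with bounds. Mmp14, the membrane-bound collagenase of fibroblasts, stood at 0.348, 0.0804 and 0.192 CPM in the line and 381, 453 and 329.5 CPM in MEFs (-11.37 ± 0.32), and its substrate proenzyme Mmp2 was lower as well (-11.02 ± 0.41). Timp3, a matrix-bound inhibitor, was at least 137-fold lower. The higher genes were the plasminogen activators Plau (1.40 ± 0.17) and Plat (1.91 ± 0.22).

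Among growth factors and receptors 21 of 49 tested genes were higher and 19 were lower (42.9% and 38.8%, beside 26.8% and 28.8% of all genes). Egfr, the EGF receptor, and its ligand Tgfa were higher in the line (4.24 ± 0.17 and 4.07 ± 0.24), and so was Nrg1, a ligand of ERBB3 (2.76 ± 0.24). In the FGF family, Fgfr4, the receptor of liver and kidney epithelia, was higher (9.84 ± 0.45) and Fgfr1, the main receptor of fibroblasts, lower (-3.86 ± 0.29). Fgf1 was at least 125-fold higher, Fgf2 at least 25.5-fold lower with 0 counts in all 3 m-ICc12 libraries, and Fgf7, a ligand that stromal cells make for epithelia, was lower (-8.60 ± 0.37). Bmp7, a bone morphogenetic protein of kidney epithelium, was at 215, 221 and 220.0 CPM in the line and 0.285, 0.176 and 0.0764 CPM in MEFs (10.12 ± 0.27; adjusted p = 2.2e-09). Igfbp5, which binds insulin-like growth factors, was at least 772-fold higher, at 105, 89.7 and 70.4 CPM in the line, and Wnt7b and Igfbp7 were higher (3.93 ± 0.19 and 4.43 ± 0.22).

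Genes of the kidney tubule, a list drawn up after earlier results of these data had shown Havcr1 and Cdh16 in the line, were high in m-ICc12 cells. Of 35 genes 21 were tested, 17 were higher than in MEFs and 2 were lower (81% and 9.52%, beside 26.8% and 28.8% of all genes). The median log2 difference was 8.25, or 4.91 with bounds. Against organoids 15 of 23 tested genes of the list were higher in the line and 5 were lower, beside 31.9% and 35% of all genes. Genes of intestinal identity were nearly all lower than in organoids, as given above. From which tissue the line came was not tested. Pax8, a paired-box factor of kidney, thyroid and genital tract, stood at 339, 299 and 289 CPM in the line, 0.166, 0.301 and 0.191 CPM in MEFs and a median of 4.19 CPM in organoids (10.42 ± 0.24; adjusted p = 1.2e-09 against MEFs). Pax2, its partner in the nephric lineage, was at 114, 48.4 and 66.5 CPM in the line and 0.0237, 0.0251 and 0.115 CPM in MEFs, at least 666-fold higher. Lhx1 and Emx2, factors of the early nephric duct and its bud, were higher too (6.88 ± 0.76 and 2.66 ± 0.27).

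Membrane proteins of the tubule followed. Cdh6, a cadherin of the developing nephron, was called higher (10.94 ± 0.43), as was Havcr1, the kidney injury molecule of proximal tubules, at 63.7, 124 and 122 CPM against 0.142, 0.0753 and 0.115 CPM (9.81 ± 0.40). The endocytic receptor Lrp2 (megalin) was at 312, 214 and 249 CPM in the line and 8.67, 11.8 and 5.04 CPM in MEFs (4.91 ± 0.31), while its partner Cubn, cubilin, was at 11.1, 0.858 and 2.74 CPM against 5.53, 3.56 and 1.53 CPM, with no call against MEFs (0.42 ± 0.88; adjusted p = 0.71; -0.96 without m-ICc12 replicate 1), and was lower than in organoids (-4.84 ± 1.01). Amn, which anchors cubilin in the membrane of kidney and gut cells, was higher than in MEFs (8.86 ± 0.49) but was not called against organoids, whose median was 38.4 CPM (adjusted p = 0.15). Pkhd1, the polycystic kidney gene of collecting ducts, was at 494, 271 and 291 CPM in the line and 0.166, 0.652 and 0.191 CPM in MEFs (9.96 ± 0.46). Ggt1, the brush border enzyme gamma-glutamyltransferase, had 164, 204 and 198 CPM in the line and 0.0712, 0.677 and 0.153 CPM in MEFs (9.22 ± 0.48). Cyp4b1 was at least 297-fold higher than in MEFs, again with no call against organoids (adjusted p = 0.46), and Kap, an androgen-regulated gene of mouse proximal tubules, was at least 36.2-fold higher. Spp1, which encodes osteopontin, stood at 1718, 2556 and 2239 CPM in the line and 196, 171 and 155 CPM in MEFs (3.64 ± 0.18). Against this, Slc22a6, Slc22a8, Miox, Aqp2 and Calb1, genes of mature proximal and distal tubule segments, were at 0 in all 6 libraries, and the water channel Aqp1 was lower in the line than in MEFs (11.7, 6.09 and 7.49 CPM against 326, 356 and 276 CPM; -5.34 ± 0.25), as was Gatm, which encodes the first enzyme of creatine synthesis (at least 4.08-fold lower, with the call lost at adjusted p = 0.0501 with all 27 libraries in 1 fit).

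**Figure D4:**
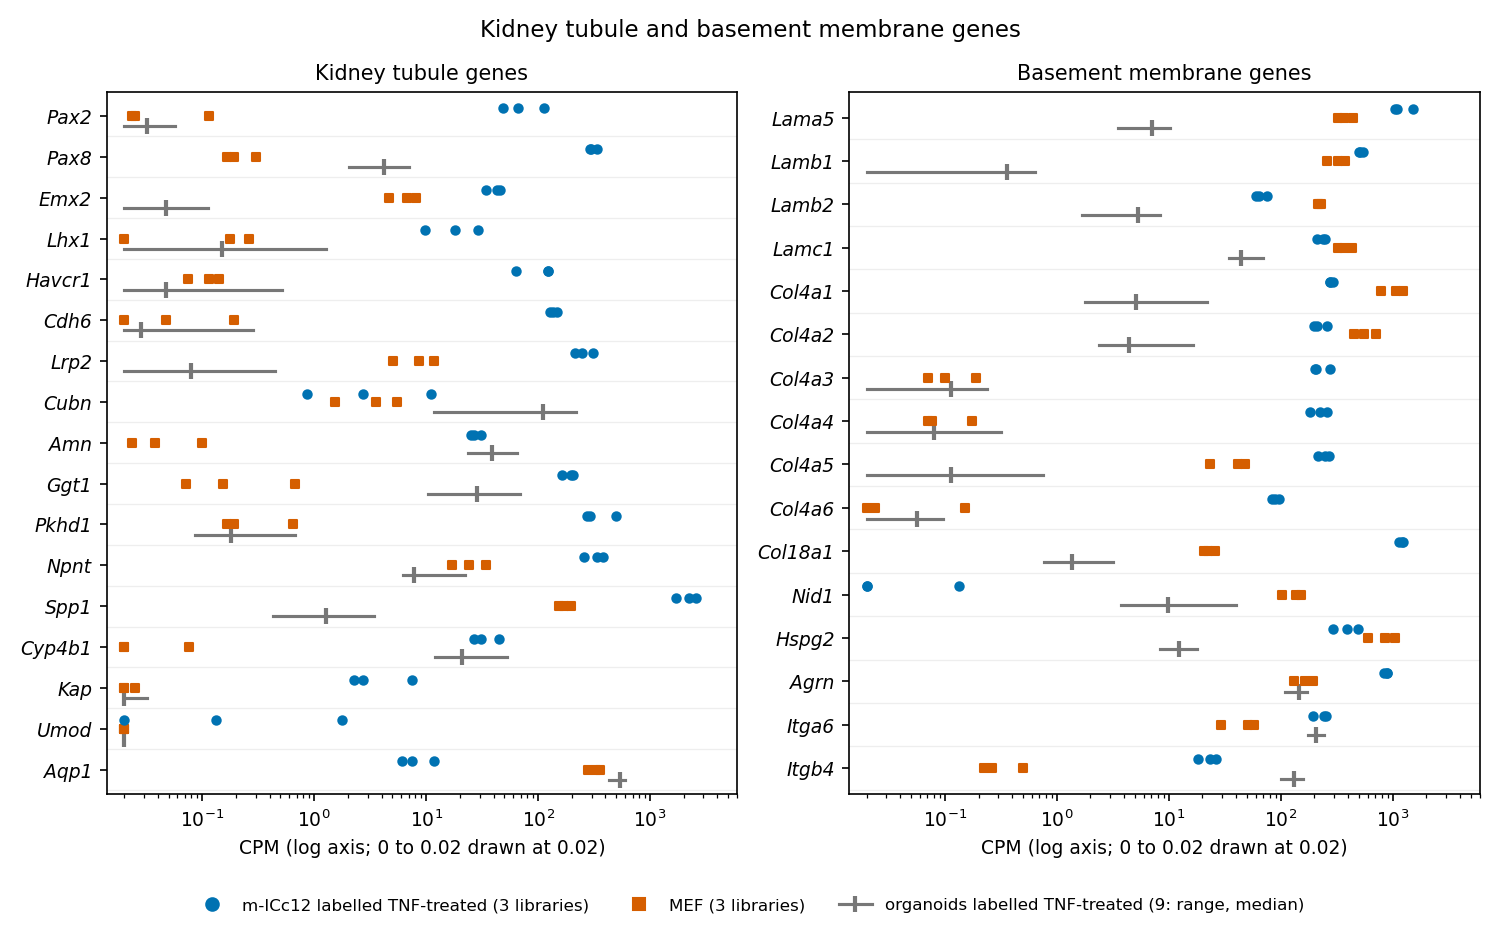
CPM on a log axis for 17 kidney tubule genes (left) and 16 basement membrane genes (right), with blue points for the 3 m-ICc12 libraries labelled TNF-treated, orange squares for the 3 MEF libraries and grey lines for the range and median of 9 organoid cultures. Pax8, Havcr1, Cdh6, Col4a3 and Col4a4 stand far above both other cell types in the line, whereas Aqp1, Nid1 and Col4a1 are higher in MEFs.

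Hox genes, which record position along the body axis in many adult cells, set the cell types apart by cluster. Of 39 genes 35 were tested, 23 were higher in the line and 6 were lower (65.7% and 17.1%, beside 26.8% and 28.8% of all genes). The Hoxb cluster (chr11:96194316-96368256, GRCm38) summed to 178, 222 and 216 CPM in m-ICc12 replicates 1 to 3 and to 0.332, 0.452 and 0.229 CPM in MEFs, and all 8 tested genes were higher. The Hoxc cluster (chr15:102921103-103036852) summed to 123, 99.8 and 88.3 CPM in the line and to 0.0237, 0.0753 and 0.153 CPM in MEFs, again with 8 of 8 tested genes higher. Both clusters were thus at or under the floor in MEFs in most of their genes, while Hoxb9 and Hoxc10 led them in the line (8.70 ± 0.34 and 10.12 ± 0.42).

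Hoxa genes were shared, and the posterior ends of Hoxa and Hoxd belonged to MEFs. The Hoxa cluster (chr6:52155590-52260880) summed to 187, 136 and 135 CPM in the line and 121, 116 and 151 CPM in MEFs, with 3 genes higher, 2 lower and 6 not called. The lower ones were Hoxa11 (at least 52.3-fold lower) and Hoxa13 (at least 8.11-fold lower, with 0 counts in all 3 m-ICc12 libraries). In the Hoxd cluster (chr2:74668310-74765142) 4 genes were higher and 4 were lower, and Hoxd13, the most posterior gene, a factor of distal limb and genital bud, was at 1.22, 0.107 and 0 CPM in the line and 177, 173 and 161 CPM in MEFs (-9.85 ± 0.56). Hoxd8, nearer the anterior end, was higher in the line (2.31 ± 0.28), a call lost with all 27 libraries in 1 fit (adjusted p = 0.16).

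**Figure D5:**
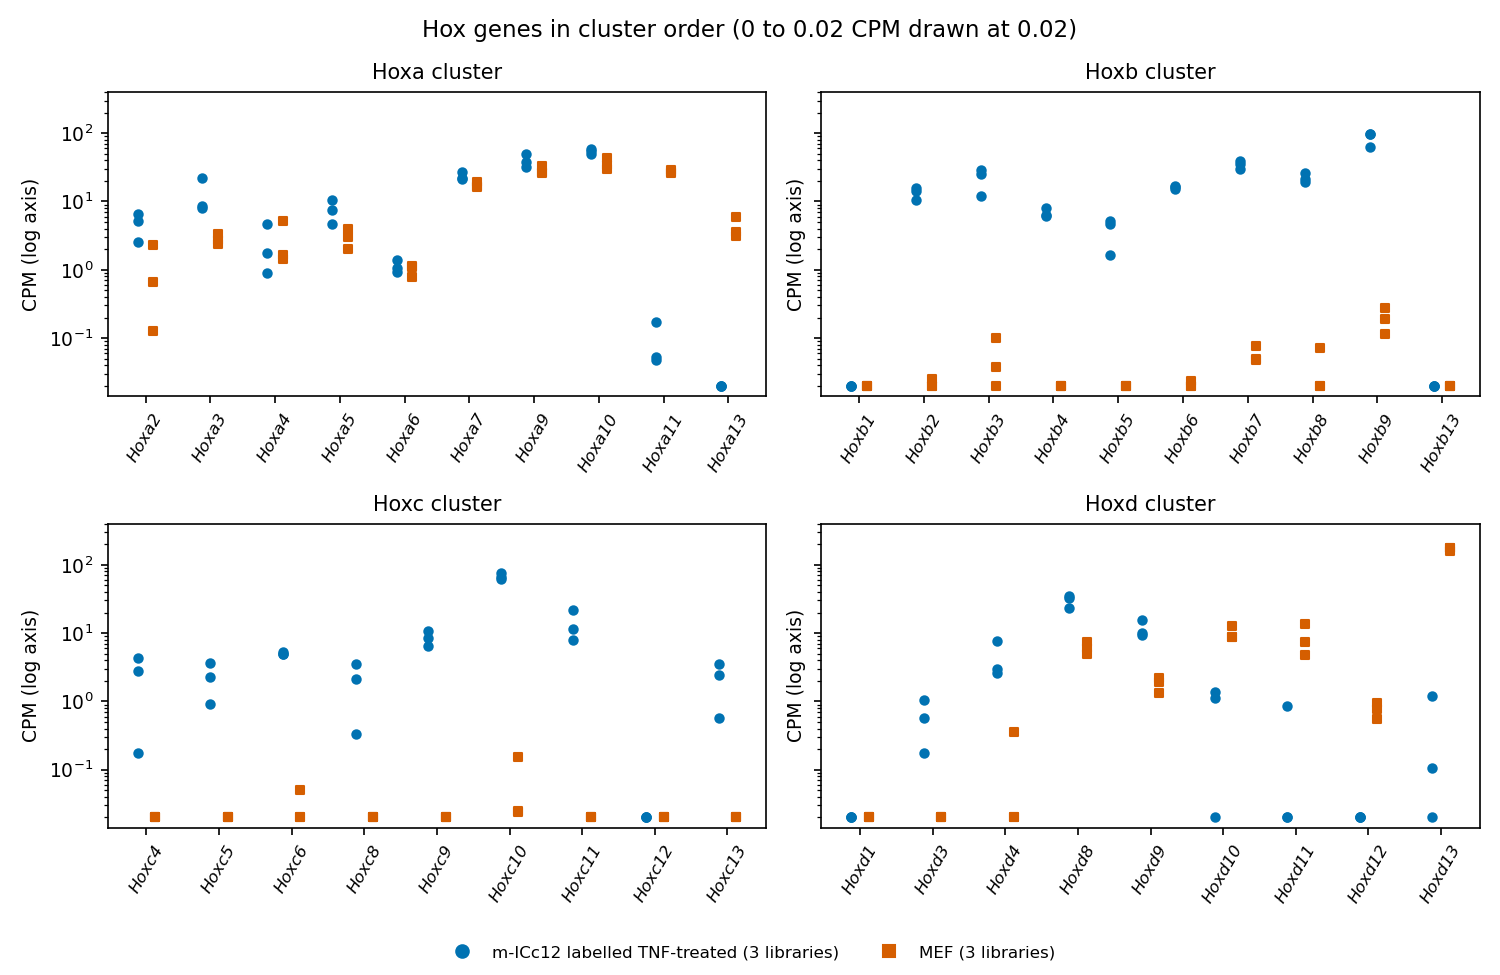
CPM on a log axis for Hox genes of each cluster in order, with blue points for the 3 m-ICc12 libraries labelled TNF-treated and orange squares for the 3 MEF libraries. Hoxb and Hoxc genes lie near 0 in MEFs, the Hoxa genes up to Hoxa10 overlap or lie near each other, and Hoxa11, Hoxa13 and Hoxd10 to Hoxd13 are higher in MEFs.

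The p53 and Rb pathways hold back division and are commonly disabled in immortal lines. Of 46 tested genes of these pathways and the cell cycle 14 were higher (30.4%, near the 26.8% of all genes) and 25 were lower (54.3%, beside 28.8%). Close to MEFs were 14, beside 33% of all genes, and the median was -0.53. Transcripts of Trp53 itself were lower in the line (139, 153 and 133 CPM against 278, 299 and 293 CPM; -1.03 ± 0.12), while its targets Cdkn1a, Mdm2 and Ccng1 were higher (3.50 ± 0.17, 1.10 ± 0.13 and 2.24 ± 0.15). Cdkn2a, the locus of the p16 and ARF inhibitors, was at 2.78, 0.0268 and 0.144 CPM in the line and 119.5, 108 and 149 CPM in MEFs (-8.37 ± 0.81; adjusted p = 1.0e-05). Its neighbour Cdkn2b, which encodes the inhibitor p15, was at least 71.9-fold lower. Rb1 was higher in the line (2.24 ± 0.21). Among the cyclins D, Ccnd1 was higher (1.57 ± 0.14) and Ccnd2 lower, at 5.22, 1.5 and 1.06 CPM against 256, 273 and 216 CPM (-7.02 ± 0.43), and Cdk6, their kinase, was higher (1.54 ± 0.21). Tert, which encodes telomerase, was higher as well (5.99 ± 0.70; adjusted p = 4.2e-05).

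Genes that the study itself had singled out on these samples, and which are therefore no independent evidence of their direction, were read last. The study's organoid signature had 2 components of transcripts and proteins, and 1 member of each was not matched to a gene here. Selenbp1, Eml2 and Pycard, among others, were members as proteins there, whereas all values here are of RNA. Of the 9 genes matched in the second component 8 were higher in m-ICc12 cells than in MEFs and 1 was lower (88.9% and 11.1%, beside 26.8% and 28.8% of all genes). They included Selenbp1, a selenium-binding protein (9.27 ± 0.25), Map3k21, a MAP kinase kinase kinase (9.65 ± 0.32), Sigirr, an inhibitory receptor of the interleukin 1 family (6.79 ± 0.29), and Eml2, a microtubule-binding protein (5.31 ± 0.21). The lower gene was Pdlim1, a PDZ-LIM protein of stress fibres, at 6.61, 1.15 and 0.576 CPM against 194, 197 and 178 CPM (-6.72 ± 0.61). Of the 13 genes matched in the first component 9 were close to MEFs (beside 33% of all genes), 1 was higher and 1 was lower. Of 14 tested inflammasome genes 5 were higher and 3 were lower (35.7% and 21.4%, beside 26.8% and 28.8% of all genes). Casp1, Naip1 and Nlrp6, which encode a caspase and sensors of the inflammasome, were higher than in MEFs (4.84 ± 0.96, 4.58 ± 1.11 and 4.05 ± 0.68) but lower than in organoids (-4.69 ± 0.30, -5.23 ± 0.31 and -5.41 ± 0.22). Levels were low: Casp1 had 3.83, 1.61 and 5.52 CPM in the line and 0.0950, 0.125 and 0.153 CPM in MEFs. Pycard, which encodes ASC, had 1.39, 0.509 and 0.192 CPM in the line, with no call against MEFs (adjusted p = 0.46). The study reported low or undetectable inflammasome genes in both cell types. Naip1 has near-identical copies, among which reads can be split. Gsdmd, the pore-forming executor, was at least 13.6-fold lower than in MEFs. The levels of NF-kB targets were known when these libraries were picked, so their balance is no evidence on the line. Of 20 tested targets 6 were higher and 10 were lower (30% and 50%, beside 26.8% and 28.8% of all genes, median -0.76). Among the higher were Cxcl1 (5.80 ± 0.46) and Lcn2, an iron-binding antibacterial protein (7.89 ± 0.45). Among the lower were Ccl2 (-3.34 ± 0.63) and the adhesion molecule Vcam1 (-8.20 ± 0.58). With the m-ICc12 libraries labelled untreated the list counted 12 higher and 5 lower, and Nfkbia and Ccl2 turned from lower to higher (log2 differences 1.04 and 1.88).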

How the data were processed

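RNA of m-ICc12 cells, MEFs and intestinal organoids had been sequenced from poly(A)-selected libraries, and the methods of the study name no strand-specific step. Per the labels, the authors used bcl2fastq 2.19, Trimmomatic, STAR 2.5.4b on GRCm38, featureCounts and edgeR, and the methods of the study name another counter and STAR release. The deposited files hold raw counts, whole numbers for 22524 Ensembl genes per library. Whether counting used strand or reads with several matches is not given in the sources used here, so overlapping genes, as in the Hox clusters, and near-identical copies may share reads. Lars2, which took up to 13.5% of a library, was kept in the totals. Some genes are not reported here.

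Symbols were matched to GENCODE vM21 (22214 genes). A gene was tested when 50% or more of the libraries of either group had 10 or more counts for it. The fit was made in edgeR 4.0.16 (R 4.3.3) with TMM scaling, the quasi-likelihood F-test on the 6 libraries, and Benjamini-Hochberg adjustment over all genes tested. CPM use TMM-scaled totals. Log2 differences are m-ICc12 minus MEF, and SE was taken from the F statistic. A second fit set the same m-ICc12 libraries against the 9 organoid cultures. Fold bounds (at least so many fold) used a floor of 3 counts per library. Each is the mean CPM of the higher group over the highest floor among libraries of the lower group. It bounds the ratio of group means, so single libraries of the higher group can give a smaller ratio. On counts simulated for the 12623 genes, the test recovered 54% of 200 genes changed by 1 on the log2 scale, with 6.09% false calls. The changed genes were drawn from those with more counts and all others were left unchanged. These figures therefore do not cover genes with few counts or a comparison in which most genes differ. Replicates of a group differed by more than sampling noise.

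The members and the 25 gene lists (616 genes) were chosen with earlier results of these data known. Any list member may be named, besides the 10 genes in each direction with the highest CPM among those called, at least 8-fold apart and without overlap, and 4 markers picked from earlier results (Havcr1, Map3k21, Sigirr and Pdlim1). Alternatives were DESeq2 1.42.0, other scalings, no filter beyond 1 count, a replicate block, all 27 libraries in 1 fit, m-ICc12 libraries labelled untreated or summed per culture, Lars2 left out, and each replicate left out.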

Additional observations from a re-analysis of the deposited data

How the results depend on the processing

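Of 498 recomputed counts 489 stayed within 1.5 times the reported ones. With the m-ICc12 libraries labelled untreated, 12 NF-kB targets were higher and 5 lower, and with both libraries of each culture summed 11 and 6, against 6 and 10. With all 27 libraries in 1 fit, 8 inflammasome genes were higher, against 5. Macrophage and leukocyte markers counted as higher fell from 4 to 2 with a replicate block, and numbered 2 to 4 on leaving out single replicates. Same-numbered replicates did not deviate together (correlations -0.0847, -0.000157 and 0.000268), so the numbers do not pair them, and the block lowered the called genes from 7023 to 6255, of which 6174 were the same genes. DESeq2 called 7295 genes, and leaving out replicates gave 5700 (without MEF replicate 1) to 7362 (without m-ICc12 replicate 1, with 6642 of the 7023 kept). Scaling choices shifted the log2 differences by a median of at most 0.0239.

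Of 214 genes followed by name 187 kept direction and call under all 15 settings. Signs turned for 6 genes without a call in the main fit and for Nfkbia and Ccl2. Of the 6, Ankrd1 was called higher than in MEFs with the libraries labelled untreated and with cultures summed (adjusted p = 0.022 in each). Labelled untreated, Cldn3 was at -1.57, Cdx2 at -0.46, Ankrd1 at 0.41, Cubn at -0.86, Nfkbia at 1.04 and Ccl2 at 1.88 on the log2 scale, and with cultures summed Cldn3 was at -0.62, Cdx2 at -0.091, Vim at 0.026, Ankrd1 at 0.36, Cubn at -0.53, Nfkbia at 0.75 and Ccl2 at 1.42. Leaving out single replicates gave -0.046 to 0.59 for Cldn3, -0.36 to 0.89 for St14, -0.063 to 0.91 for Cdx2, -0.19 to 0.012 for Vim, -0.96 to 0.94 for Cubn and -0.15 to 0.18 for Ankrd1. Ankrd1 was at 0.018 with upper-quartile scaling and at 0.016 with all 27 libraries in 1 fit. The causes were not tested. Krt19 was called lower in 4 settings (-2.24 to -1.14), Zeb1, Runx2 and Hspg2 lost their call with all 27 libraries (adjusted p = 0.077, 0.056 and 0.086), as did Tbx18, Hoxd8 and Gatm, and Epcam lost it with the replicate block (adjusted p = 0.10). With all 27 libraries Cdh1 and Cdx1 gained a call as higher than in MEFs (adjusted p = 0.039 and 0.037). At 6071103 counts, m-ICc12 replicate 1 limits genes under about 0.522 CPM.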

Other observations

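Genes chosen by abundance rather than by list gave a view of what filled the libraries. Of the 1063 genes higher by 8-fold or more without overlap, Gpx3, the plasma glutathione peroxidase that kidney tubules secrete, had the highest mean level in the line, at 3064, 3188 and 2979 CPM against 1.38, 1.58 and 2.41 CPM in MEFs and a median of 1.88 CPM in organoids. Scd1, the stearoyl-CoA desaturase, was at 2482, 2029 and 2073 CPM against 242, 258 and 182 CPM, and Idh1, the cytosolic isocitrate dehydrogenase, at 887, 1113 and 887 CPM against 59, 55 and 58.4 CPM. Peg3, an imprinted gene expressed from the paternal allele, had 1130.4, 852 and 1036 CPM in the line and 0.546, 0.878 and 0.879 CPM in MEFs, and Bcam, a laminin receptor, 945, 963 and 1005 CPM against 1.45, 1.35 and 2.22 CPM. Sult1d1, a sulfotransferase, was at 1210.3, 1598 and 1301 CPM in the line and 0.689, 1.76 and 1.11 CPM in MEFs. Aif1l, an actin-binding protein, was the remaining gene of this rule not named above (1057, 1258 and 1125 against 39.7, 38.1 and 38.2 CPM). Of the 1023 genes lower by the same rule, the 10 most abundant in MEFs were mostly matrix or contractile genes. Beside those named above they included the follistatin-like glycoprotein gene Fstl1 at 5.92, 0.375 and 0.816 CPM in the line and 1473, 1409.8 and 1149.6 CPM in MEFs, the endocytic receptor gene Lrp1 at 18.1, 9.55 and 20.9 and 945, 1135 and 652 CPM, the tropomyosin gene Tpm1 at 129, 160.3 and 173 and 1741, 1733 and 1863 CPM, and Ltbp1, which binds latent TGF-beta (-4.18 ± 0.20). These genes were picked for their size and are descriptions.

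Among markers of other cell types, 4 of 4 tested macrophage and leukocyte markers were higher in the line, but 2 were without m-ICc12 replicate 3, MEF replicate 1 or MEF replicate 2. Csf1r, the CSF1 receptor of macrophages, stood at 138, 102 and 112 CPM in m-ICc12 replicates 1 to 3, 107, 98.9 and 64.5 CPM in the libraries labelled untreated, 0.0950, 0.301 and 0.0382 CPM in MEFs and a median of 0.0320 CPM in organoids, while Adgre1, Cd52, Tyrobp and Aif1 were at 0 in all 6 libraries. Of 2 tested endothelial markers 1 was higher, of 3 muscle markers 1 was higher and 1 lower, of 2 neural markers 1 was lower (Tubb3, 3.65, 0.134 and 0.288 CPM in the line and 26.2, 31 and 25.4 CPM in MEFs), and of 4 cartilage, bone and fat markers 2 were lower.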
